A study of Capra hircus with 12 samples.

Results

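Counts were examined for 10 genes of the Wnt pathway, out of 28910 gene rows, in 12 RNA-seq libraries of goat temporomandibular joint (TMJ) cells. The genes were the ligands WNT5A, WNT5B and NDP, the coreceptors LRP5 and LRP6, the secreted antagonists SFRP1, SFRP2, DKK1 and DKK3, and the feedback gene AXIN2. LRP6, WNT5A, SFRP2 and NDP were chosen by the pattern of their counts across these libraries, so their values are described here without any test. The other 6 genes were taken for their place in the pathway, with earlier results of these data known. All 10 were found in both count tables, and all but DKK1 had enough counts for the fit.

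Wnt ligands are secreted glycoproteins that bind Frizzled receptors together with the coreceptors LRP5 or LRP6, after which β-catenin is spared from degradation and acts with TCF/LEF factors on target genes. WNT5A and WNT5B act mostly through routes that do not need β-catenin, including planar cell polarity, whereas NDP (norrin) is no Wnt protein but binds Frizzled 4 and LRP5 or LRP6. Secreted antagonists restrain the pathway, SFRP proteins by binding ligands and DKK1 by binding LRP5 and LRP6, and the pathway is well known for its part in cartilage development and joint degeneration.

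The cells came from the superficial layer (SLC) and the middle cartilage layer (MLC) of the condyles of female goats aged 6 to 9 months, obtained from abattoirs, and were used at passages 3 to 5. Of the 6 libraries of each layer, 3 carry the label IL-1β and the other 3 the label IL-1β + LOXL2. All 12 libraries therefore share IL-1β, an inflammatory cytokine, given at 10 ng for 1 h. LOXL2, a lysyl oxidase-like enzyme, was delivered on the preceding night with the adenovirus Ad5-LOXL2. An empty adenovirus is named in the methods for goat cells of a flow cytometry assay, but neither the labels nor the culture methods state it for the IL-1β cells sequenced. If those cells had none, LOXL2 and the virus cannot be told apart. Nothing says that replicates came from separate animals or cultures, so p-values measure the spread between libraries, which may be technical. In bulk RNA, fewer expressing cells and less RNA per cell cannot be told apart.

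Library totals ranged from 14158607 to 28931652 counts, and levels are given as CPM, counts scaled to library size with TMM factors computed over all 12 libraries. As a check of the labels, the LOXL2 gene itself stood between 618 and 637 CPM with IL-1β and between 462 and 565 CPM with IL-1β + LOXL2 in SLC, and between 765 and 871 CPM and between 747 and 815 CPM in MLC. It was thus no higher under the LOXL2 label in either layer, and whether viral LOXL2 transcripts could add to its counts is unknown. SLC IL-1β + LOXL2 replicate 1 stood apart from its group. Its root mean square log2 difference over genes was 0.61 from the mean of the other 2 libraries of its group and 0.34 from the mean of the SLC IL-1β libraries, so results that rest on it are also given without it. MLC IL-1β + LOXL2 replicate 1 likewise lay nearer the MLC IL-1β mean (0.30) than the mean of the other 2 libraries of its group (0.40). Leaving it out moved the count of MLC genes with an adjusted p under 0.05 between treatments from 2958 to 6653. Cartilage genes were detected in both layers, with a mean ACAN level of 47.7 CPM in SLC and 399 CPM in MLC under IL-1β, but COL2A1 and COL9A1 had no counts in the 3 SLC IL-1β libraries.

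Between treatments, LRP6 and WNT5A stood lower with LOXL2 in both layers, NDP stood higher in SLC, and SFRP2 stood higher in MLC. WNT5B was the only tested gene of the set to pass the threshold between treatments, in MLC. Between layers, the antagonist SFRP1 was far higher in SLC, while LRP5, AXIN2 and WNT5B were higher in MLC under both treatments. SFRP1 was not alone in this, since SFRP5, outside the 10 genes, had means of 31.2 CPM in SLC and 4.87 CPM in MLC under IL-1β. SFRP2, at low counts, was 3.07-fold higher in SLC under IL-1β. The threshold was a p under 0.05 from the quasi-likelihood test of edgeR, adjusted over all genes tested by the Benjamini-Hochberg procedure. Every adjusted p below comes from edgeR unless another tool is named, and SE is the standard error of a log2 fold change. The plot of the 10 genes by library shows each value.

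**Figure D1:**
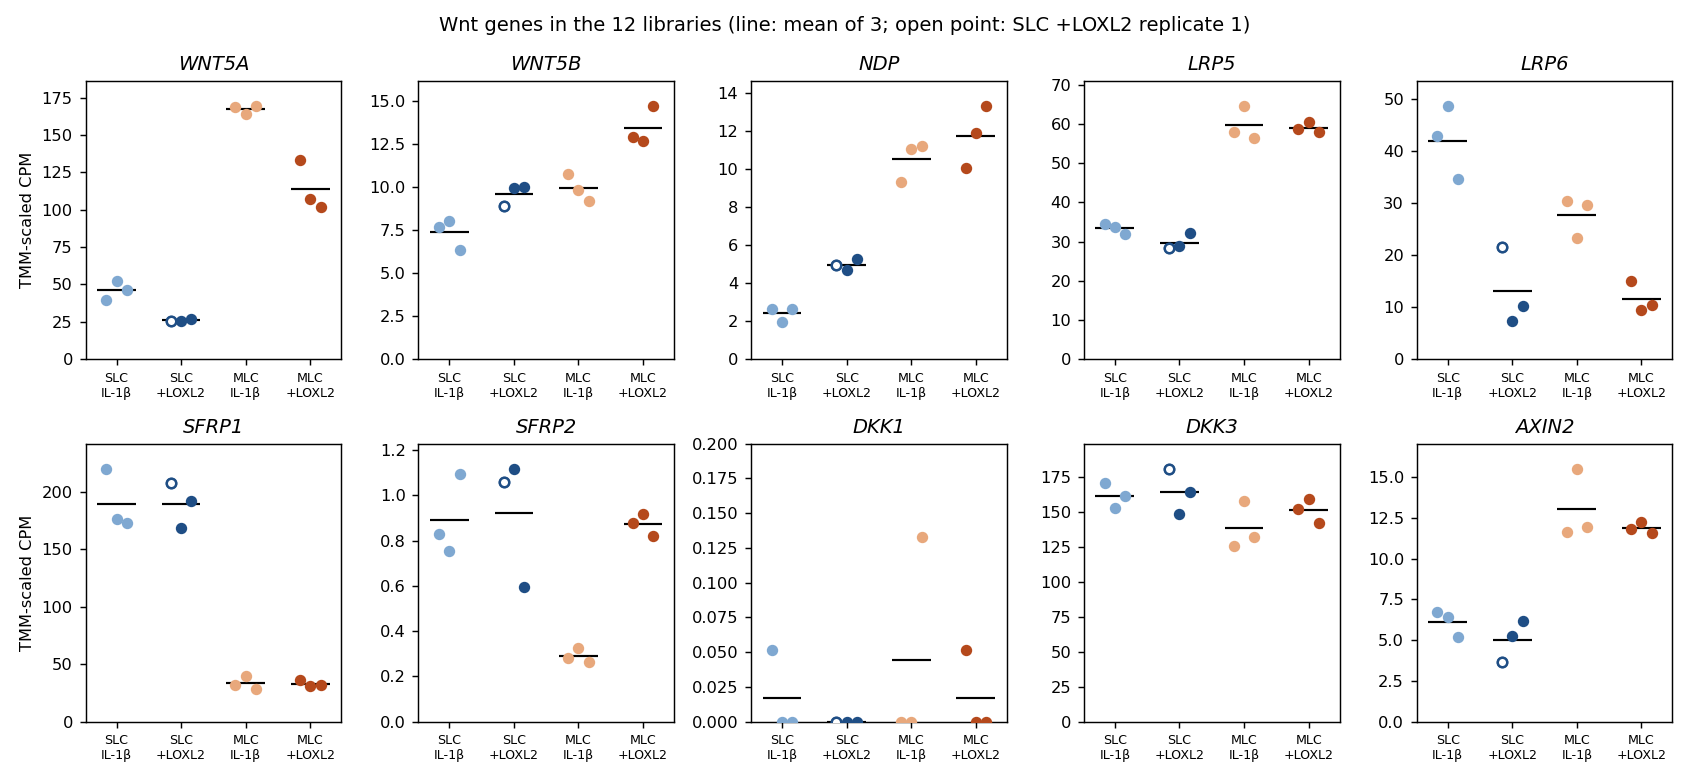
Level of each of the 10 Wnt genes (vertical axis, TMM-scaled CPM from 0) in the 12 libraries, by layer and treatment. Points are libraries, lines are means of 3, and the open point is SLC IL-1β + LOXL2 replicate 1. LRP6 and WNT5A are lower in every LOXL2 library than in every IL-1β library of the same layer, SFRP1 is about 190 CPM in SLC and 33 CPM in MLC, and DKK1 does not exceed 0.133 CPM in any library.

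WNT5A (chromosome 22, 45489033 to 45508672, goat build ARS1.2, as for all positions here) encodes the main ligand of β-catenin-independent signaling. In SLC it stood at 39.6, 51.9 and 46.4 CPM in IL-1β replicates 1 to 3 and at 25.3, 25.7 and 26.6 CPM in the IL-1β + LOXL2 replicates. In MLC it stood at 169, 164 and 169 CPM with IL-1β and at 133, 107 and 101 CPM with IL-1β + LOXL2. The treatment groups did not overlap in either layer, and neither did the layers under either treatment. WNT5A was thus 1.78-fold lower with LOXL2 in SLC (log2 fold change -0.85, SE 0.13) and 1.47-fold lower in MLC (log2 fold change -0.56, SE 0.11). It was 3.64-fold higher in MLC than in SLC under IL-1β. Leaving out SLC IL-1β + LOXL2 replicate 1 gave the same SLC value to 2 decimals.

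WNT5B (chromosome 5, 106995755 to 107076723) encodes the closest relative of WNT5A. The gene FBXL14 lies within its span and the strand setting of the counting is not stated, so counts of this pair are uncertain. Its level in SLC was 7.68, 8.02 and 6.36 CPM with IL-1β and 8.88, 9.94 and 10.0 CPM with IL-1β + LOXL2, and in MLC it was 10.7, 9.83 and 9.15 CPM and 12.9, 12.7 and 14.7 CPM. In both layers every LOXL2 library lay above every IL-1β library. In MLC the log2 fold change of WNT5B was 0.43 (SE 0.13, 95% confidence interval 0.14 to 0.72, adjusted p = 0.0387). That call was lost (adjusted p from 0.0879 to 0.162) when any library but MLC IL-1β + LOXL2 replicate 1 was left out, and in a fit on all 12 libraries (adjusted p = 0.174). In SLC the log2 fold change was 0.36 (SE 0.15, 95% confidence interval 0.02 to 0.71, adjusted p = 0.100), and it passed the threshold without replicate 1 of IL-1β + LOXL2 (0.41, adjusted p = 0.0327) and in the fit on all 12 libraries (0.38, adjusted p = 0.0336).

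The 2 WNT5 genes therefore lay on opposite sides of 0 between treatments. Within a library, the ratio of WNT5A to WNT5B counts does not depend on scaling. It ranged from 5.16 to 7.30 in SLC with IL-1β and from 2.58 to 2.84 with IL-1β + LOXL2. In MLC it ranged from 15.7 to 18.5 and from 6.91 to 10.3. The ranges did not overlap between treatments in either layer. This follows from the values of the 2 genes given above, and WNT5A was picked by its pattern, so the ratio is no separate support.

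NDP (chromosome X, 28047296 to 28094072) encodes norrin and overlaps a pseudogene that had no counts in any library. In SLC it stood at 2.65, 1.95 and 2.63 CPM with IL-1β and at 4.97, 4.69 and 5.28 CPM with IL-1β + LOXL2, a 2.07-fold higher mean (log2 fold change 1.03, SE 0.19). In MLC it stood at 9.34, 11.1 and 11.2 CPM with IL-1β and at 10.1, 11.9 and 13.3 CPM with IL-1β + LOXL2, where the groups overlapped (log2 fold change 0.15, SE 0.15). Every MLC library was above every SLC library. The mean of MLC was 4.37-fold that of SLC under IL-1β, and the log2 difference between layers was 2.15 under IL-1β and 1.26 with LOXL2.

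LRP5 (chromosome 29, 46841559 to 46964044) and LRP6 (chromosome 5, 96158191 to 96328472) encode closely related single-pass coreceptors for Wnt ligands. LRP5 in SLC stood at 34.4, 33.7 and 31.9 CPM with IL-1β and at 28.3, 28.9 and 32.1 CPM with IL-1β + LOXL2. In MLC it stood at 58.0, 64.5 and 56.4 CPM with IL-1β and at 58.8, 60.4 and 57.9 CPM with IL-1β + LOXL2. The treatment groups overlapped in both layers and the layers did not overlap. The log2 fold change of LRP5 with LOXL2 was -0.18 in SLC (95% confidence interval -0.43 to 0.06, adjusted p = 0.197) and -0.02 in MLC (95% confidence interval -0.22 to 0.18, adjusted p = 0.892). Between layers LRP5 was higher in MLC, with a log2 fold change of 0.85 under IL-1β (SE 0.07, adjusted p = 3.04e-07) and 1.02 with LOXL2 (SE 0.11, adjusted p = 0.00115).

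LRP6 had a different pattern. In SLC it stood at 42.9, 48.6 and 34.6 CPM with IL-1β and at 21.6, 7.41 and 10.2 CPM with IL-1β + LOXL2. In MLC it stood at 30.4, 23.4 and 29.6 CPM with IL-1β and at 15.1, 9.41 and 10.5 CPM with IL-1β + LOXL2. The treatment groups did not overlap in either layer, and replicate 1 was the highest LOXL2 library in both. LRP6 was 3.22-fold lower with LOXL2 in SLC (log2 fold change -1.71, SE 0.38) and 2.39-fold lower in MLC (log2 fold change -1.25, SE 0.17). Without SLC IL-1β + LOXL2 replicate 1 the SLC log2 fold change was -2.29. Under IL-1β, LRP6 was lower in MLC than in SLC (log2 fold change -0.59), opposite in sign to LRP5. With LOXL2 the layers overlapped, and the log2 difference went from -0.14 to 0.45 when SLC replicate 1 was left out.

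The ratio of LRP6 to LRP5 counts within a library followed the same pattern. Between treatments it mainly restates the values of LRP6, a picked gene, since LRP5 overlapped in both layers. In SLC it was 1.25, 1.44 and 1.08 with IL-1β and 0.763, 0.257 and 0.318 with IL-1β + LOXL2. In MLC it was 0.524, 0.362 and 0.525 with IL-1β and 0.256, 0.156 and 0.181 with IL-1β + LOXL2. LRP6 counts exceeded LRP5 counts only in the 3 SLC IL-1β libraries. These are ratios of counts not divided by transcript length, so they compare libraries and not the levels of the genes.

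SFRP1 (chromosome 27, 9355634 to 9398794) encodes a secreted decoy with a Frizzled-like domain. In SLC it stood at 219.8, 176 and 173 CPM with IL-1β and at 208, 168 and 192 CPM with IL-1β + LOXL2, and in MLC at 32.3, 39.6 and 28.3 CPM and at 36.6, 31.3 and 31.9 CPM. The lowest SLC library was above the highest MLC library, and the treatments overlapped in each layer. SFRP1 was 5.69-fold higher in SLC than in MLC under IL-1β (MLC against SLC log2 fold change -2.49, SE 0.11, adjusted p = 5.59e-10). The value with LOXL2 was also -2.49 (SE 0.14, adjusted p = 1.1e-04). Its log2 fold change with LOXL2 was -0.02 in SLC (95% confidence interval -0.35 to 0.30, adjusted p = 0.902) and -0.01 in MLC (95% confidence interval -0.29 to 0.27, adjusted p = 0.958).

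SFRP2 (chromosome 17, 66977439 to 66985983), a close relative of SFRP1, was near the detection limit. In SLC it stood at 0.831, 0.753 and 1.09 CPM with IL-1β and at 1.06, 1.12 and 0.596 CPM with IL-1β + LOXL2. In MLC it stood at 0.281, 0.325 and 0.265 CPM with IL-1β, from 4 or 5 counts a library, and at 0.877, 0.920 and 0.819 CPM with IL-1β + LOXL2, from 13 to 17 counts. The 3 MLC IL-1β libraries were thus below the other 9, and the treatments overlapped in SLC. The log2 fold change with LOXL2 was 1.55 in MLC (SE 0.41) and 0.04 in SLC (SE 0.34).

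DKK3 (chromosome 15, 41594319 to 41645492) encodes a divergent member of the Dickkopf family. It stood at 171, 153 and 161 CPM with IL-1β and at 181, 148 and 164 CPM with IL-1β + LOXL2 in SLC, and at 126, 158 and 132 CPM and at 152, 159 and 142 CPM in MLC. All 4 groups overlapped. With LOXL2 its log2 fold change was 0.01 in SLC (95% confidence interval -0.26 to 0.27, adjusted p = 0.961) and 0.12 in MLC (95% confidence interval -0.11 to 0.34, adjusted p = 0.413). Under IL-1β DKK3 was lower in MLC (log2 fold change -0.21, SE 0.08, adjusted p = 0.0470), a call lost without SLC IL-1β replicate 1 or 3 or MLC IL-1β replicate 1 or 3 (adjusted p from 0.0935 to 0.210). It was also lost with the trend on gene span removed (adjusted p = 0.0701), with the replicate number as a block (0.0731) and in the fit on all 12 libraries (0.182). DKK1 (chromosome 26, 44554199 to 44557022), the inhibitor of LRP5 and LRP6, had 4 counts in all, with none in 9 of the 12 libraries and at most 2 in any. A count of 0 allows a level of up to 0.112 CPM in the deepest library and 0.212 CPM in the shallowest, counting error only, so no difference in DKK1 was detectable at this depth.

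AXIN2 (chromosome 19, 61364767 to 61392807) encodes a scaffold of the β-catenin destruction complex and is itself a widely used target of β-catenin signaling. In SLC it stood at 6.70, 6.42 and 5.22 CPM with IL-1β and at 3.63, 5.25 and 6.19 CPM with IL-1β + LOXL2. In MLC it stood at 11.7, 15.5 and 11.9 CPM with IL-1β and at 11.8, 12.2 and 11.6 CPM with IL-1β + LOXL2. Every MLC library was above every SLC library and the treatments overlapped in both layers. AXIN2 was higher in MLC, by 1.11 on the log2 scale under IL-1β (SE 0.15, adjusted p = 2.23e-05) and by 1.27 with LOXL2 (SE 0.21, adjusted p = 0.00620). With LOXL2 its log2 fold change was -0.30 in SLC (95% confidence interval -0.82 to 0.22, adjusted p = 0.311) and -0.14 in MLC (95% confidence interval -0.45 to 0.17, adjusted p = 0.479).

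Counted over the 5 tested genes with enough counts (LRP5, WNT5B, SFRP1, DKK3 and AXIN2), none passed the threshold between treatments in SLC, where 0% of 14103 genes did with edgeR. WNT5B had an unadjusted p under 0.05 in SLC, as did 6108 of all genes. DESeq2's Wald test called 4234 SLC genes (30% of those tested) but none of these 5, and edgeR without IL-1β + LOXL2 replicate 1 called 61.7% of all genes tested and WNT5B alone of the 5. In MLC 1 of the 5 genes passed, WNT5B, which was higher with LOXL2, against 21.6% of 13664 genes in either direction and 9.81% higher. Groups that do not overlap were common as well. Between treatments this held for 49.3% of all genes in SLC, 23.2% with LOXL2 lower, and for 41.3% in MLC, 19.9% with LOXL2 lower, so the lack of overlap alone sets none of the 10 genes apart. The plot of treatment differences shows the fold changes together.

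**Figure D2:**
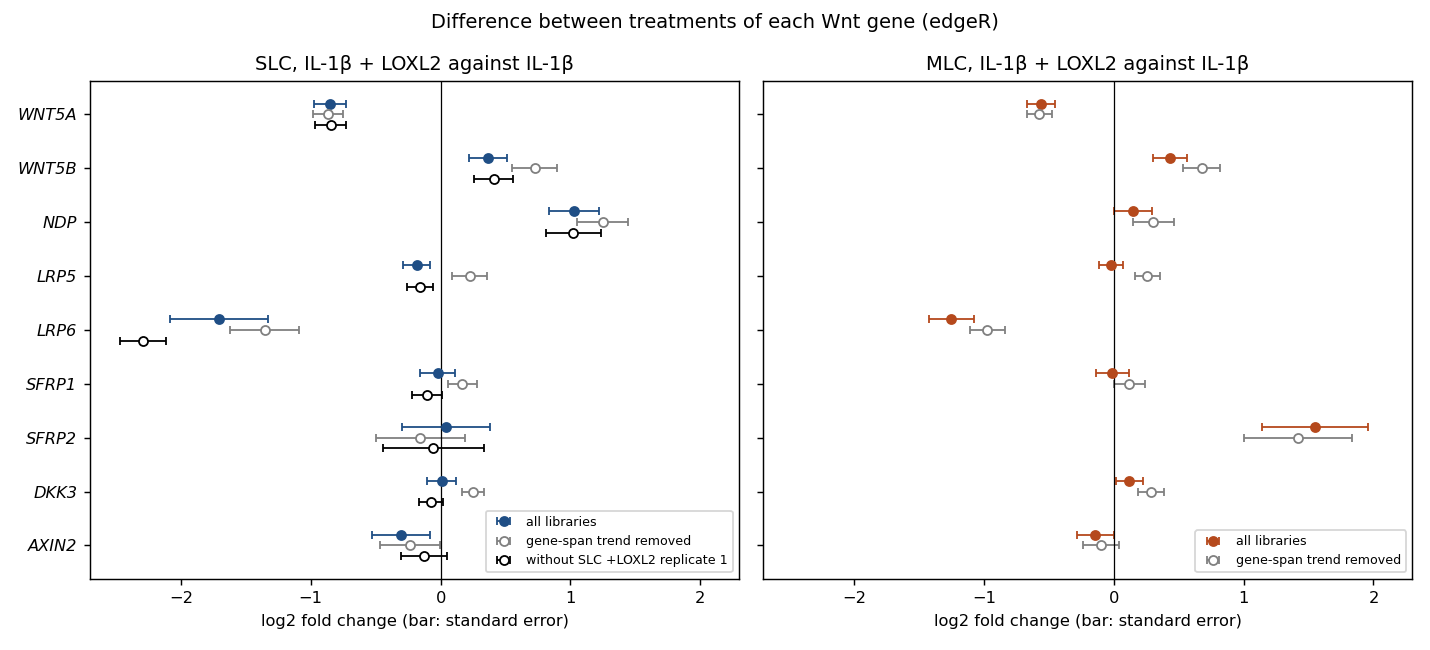
Log2 fold change of 9 Wnt genes between IL-1β + LOXL2 and IL-1β (horizontal axis, edgeR) in SLC on the left and MLC on the right, with bars for the standard error. Filled points use all 6 libraries of the layer, grey points have the trend on gene span removed, and black open points in SLC leave out IL-1β + LOXL2 replicate 1. LRP6 is the lowest in both layers at -1.71 and -1.25, and SFRP1, DKK3 and LRP5 lie within 0.2 of 0 when all libraries are used.

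Fold changes with LOXL2 moved with gene span, the genomic length from start to end of a gene. All tested genes were split by span into 10 groups of equal size. In the group with the longest spans, which holds LRP6 (170 kb), the median log2 fold change stood at -0.44 in SLC and -0.30 in MLC. In the group with LRP5 (122 kb) and WNT5B (81.0 kb) it was -0.35 and -0.26, and in that of WNT5A (19.6 kb) it was 0.076 and 0.060. LRP6 was below the median of its group and WNT5B above the median of its own, in both layers. With the trend on span removed, the log2 fold change of LRP6 was -1.36 in SLC and -0.97 in MLC, that of WNT5A -0.87 in SLC, and that of WNT5B 0.68 in MLC. LRP5 changed sign, to 0.22 in SLC and 0.26 in MLC, without passing the threshold. The part of gene span in these differences was not tested further.

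**Figure D3:**
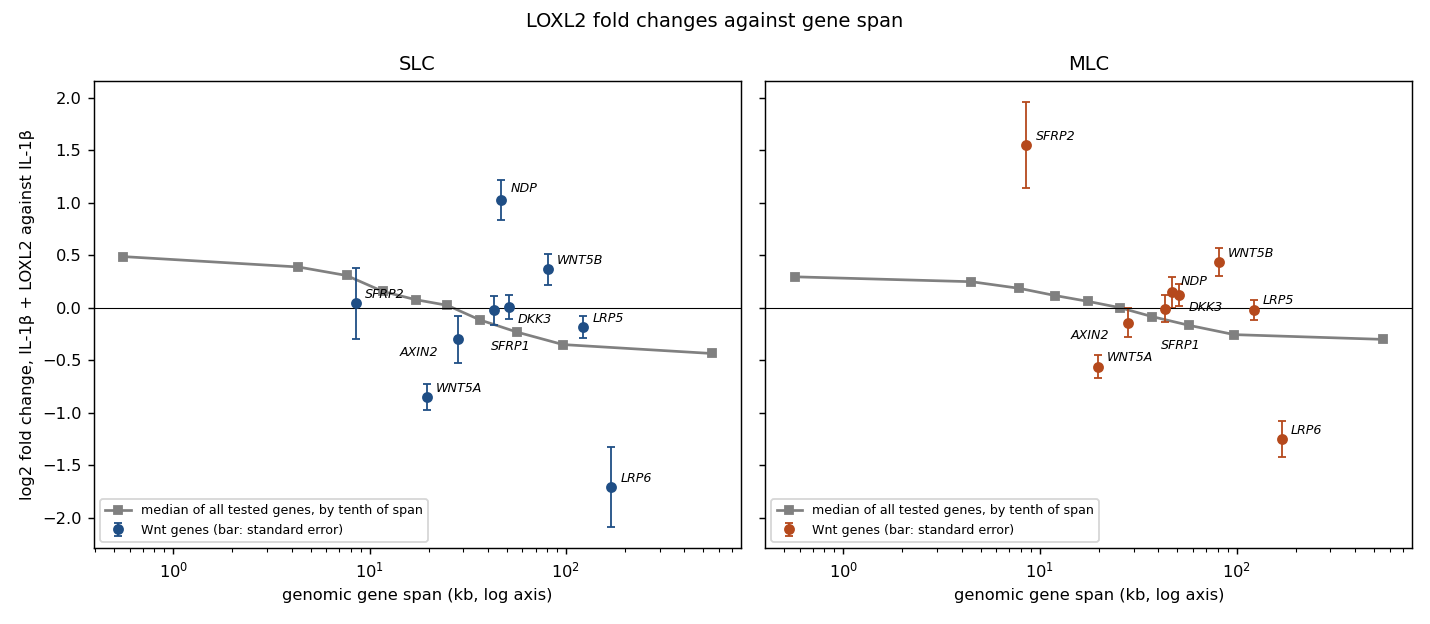
Log2 fold change with LOXL2 (vertical axis) against genomic gene span in kb (horizontal log axis) for 9 Wnt genes, with standard error bars, in SLC on the left and MLC on the right. Grey squares are the medians of all tested genes in 10 groups of span, falling from 0.49 to -0.44 in SLC and from 0.29 to -0.30 in MLC. LRP6 and WNT5A lie below the grey line in both panels, and WNT5B lies above it.

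Between layers under IL-1β, all 5 tested genes passed the threshold, against 46.9% of 13953 genes, and 55.9% of all genes had layers that did not overlap. LRP5, WNT5B and AXIN2 were higher in MLC (24.2% of all genes were) and SFRP1 and DKK3 lower (22.7%). The log2 fold change of WNT5B between layers was 0.44 (95% confidence interval 0.16 to 0.72, adjusted p = 0.0130), a call lost without SLC IL-1β replicate 3 or MLC IL-1β replicate 1 (adjusted p = 0.0548 and 0.0525). With LOXL2, 4 of the 5 genes passed against 16.1% of 14074 genes (9.29% higher and 6.83% lower in MLC), all but DKK3 (log2 fold change -0.10, 95% confidence interval -0.39 to 0.20, adjusted p = 0.656). WNT5B was higher in MLC by 0.51 (SE 0.14, adjusted p = 0.0454), which stayed under 0.05 without SLC replicate 1 (adjusted p = 0.0421) but not without any other of the 6 libraries (adjusted p from 0.0791 to 0.176). The replicate number as a block moved the count over all genes from 2268 to 3884 in this comparison and called the same 4 of the 5. LRP5, SFRP1 and AXIN2 kept their direction and their call between layers under both treatments in every alternative run.

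**Figure D4:**
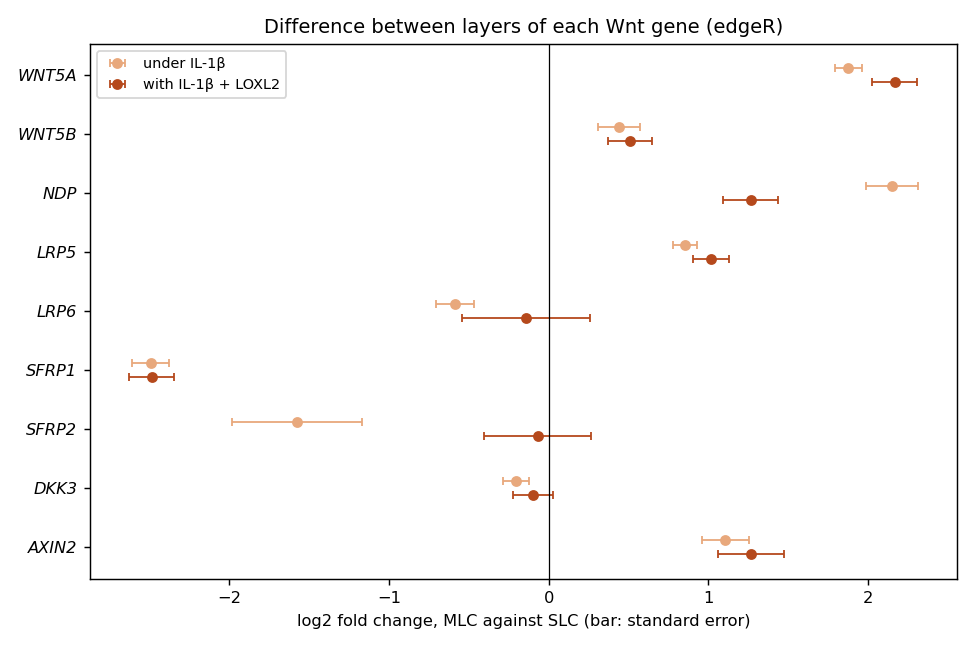
Log2 fold change of 9 Wnt genes in MLC against SLC (horizontal axis, edgeR, bars for the standard error), under IL-1β in light colour and with IL-1β + LOXL2 in dark colour. SFRP1 lies at -2.49 under both treatments. NDP moves from 2.15 to 1.26, SFRP2 from -1.58 to -0.07 and LRP6 from -0.59 to -0.14.

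The layers also differed in marker genes of several cell types, whose part in the Wnt differences was not tested. Of 10 chondrocyte markers 8 were found. Their summed level ranged from 1312 to 1427 CPM in SLC and from 1758 to 1911 CPM in MLC under IL-1β, and with LOXL2 from 752 to 1314 CPM and from 1494 to 1871 CPM. COL11A1, the largest part of each sum, had means of 1237 CPM in SLC and 1190 CPM in MLC under IL-1β. The other chondrocyte markers found had higher means in MLC under IL-1β. For MATN3 the layers overlapped at low levels, from 0.260 to 0.447 CPM in SLC and from 0.0651 to 0.597 CPM in MLC. Of 10 skeletal muscle markers 8 were found. They summed to between 22.3 and 23.5 CPM in SLC and between 2.46 and 3.58 CPM in MLC under IL-1β, with MYOD1 and MYOG at 0 in both layers and PAX7 at a mean of 14.8 CPM in SLC. DES, with low means of 0.112 CPM in SLC and 0.312 CPM in MLC, went the other way. All 8 markers of superficial and fibrous tissue were found, with TNMD at 0, and summed to between 56867 and 59667 CPM in SLC and between 46945 and 49694 CPM in MLC under IL-1β. COL1A1 and COL1A2 made up most of these sums. PRG4 and SCX went the other way, with means of 4.41 and 5.95 CPM in SLC and 5.95 and 7.23 CPM in MLC. The 5 epithelial markers, with KRT5 at 0, summed to between 7.49 and 10.2 CPM in SLC and between 28.2 and 35.1 CPM in MLC under IL-1β. CLDN4 and KRT14 carried the higher MLC sum. EPCAM and CDH1 were lower in MLC, EPCAM with means of 0.596 CPM in SLC and 0.109 CPM in MLC. Endothelial and osteoblast markers summed to at most 5.21 and 4.17 CPM in any library of these groups.

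The effect of LOXL2 was compared between layers as an interaction in a fit on all 12 libraries. None of the 5 tested genes passed (adjusted p of at least 0.958), and 0% of 14519 genes did with edgeR. None of the 5 had an unadjusted p under 0.05, and 327 of all genes did. Without SLC IL-1β + LOXL2 replicate 1 the interaction called 0.0068% of all genes, which is 1 gene and none of the 5. In that fit 3984 of 14701 genes had an unadjusted p under 0.05. The difference of the log2 fold changes, MLC minus SLC, was 0.15 for LRP5 (95% confidence interval -0.12 to 0.42), 0.05 for WNT5B (-0.34 to 0.45) and 0.15 for AXIN2 (-0.43 to 0.72). The picked genes had differences of -0.89 for NDP, 1.5 for SFRP2, 0.45 for LRP6 and 0.28 for WNT5A. The LRP6 value was 1.02 without SLC IL-1β + LOXL2 replicate 1.

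A wider list of Wnt pathway genes placed these results among their neighbours in the pathway. It held 116 names written by role, of which 112 were found. Leaving out the 4 picked genes, 21 of 84 tested list genes passed between treatments in MLC, 3 higher and 18 lower with LOXL2, beside 21.6% of all genes, 9.81% higher and 11.8% lower. The median log2 fold change of the list was -0.12 against 0.01 over all genes tested. No gene of the list passed without MLC IL-1β replicate 1 or 3 or without MLC IL-1β + LOXL2 replicate 2. Of the 21 calls, 6 remained without MLC IL-1β replicate 2, 6 without MLC IL-1β + LOXL2 replicate 3, and 21 without MLC IL-1β + LOXL2 replicate 1.

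Of the 24 cytoplasmic transducers tested in MLC, 8 fell and none rose, beside the 11.8% of all genes that fell and the 9.81% that rose. CSNK1G1, a casein kinase, fell by 1.21 on the log2 scale (adjusted p = 0.0190), TNKS, a tankyrase that marks axin for degradation, by 0.74 (adjusted p = 0.0193), and APC, a scaffold of the destruction complex, by 0.69 (adjusted p = 0.0207). Of 18 receptors 4 fell and 1 rose, FZD2, a Frizzled receptor, with a log2 fold change of 0.63 (adjusted p = 0.0310). Of 7 secreted antagonists only SFRP5 passed, with a log2 fold change of 0.63 (adjusted p = 0.0482). Of 8 planar polarity genes 3 fell, among them VANGL1, a core membrane protein of that route, with a log2 fold change of -1.12 (adjusted p = 0.0190). The genes that fell have opposed roles, since APC restrains β-catenin whereas CTNNB1, named here after its value was seen, encodes it and fell by 0.33 on the log2 scale (adjusted p = 0.0287). The list has a median span of 43.2 kb against 20.5 kb for all tested genes, and with the span trend removed 12 of the 21 calls remained. CSNK1G1, TNKS and APC span 146, 153 and 140 kb.

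In SLC none of 79 tested list genes passed between treatments, and 29 did at an unadjusted p under 0.05, 7 higher and 22 lower with LOXL2. Over all genes 6108 of 14103 had an unadjusted p under 0.05, 3257 higher and 2851 lower. Among the 29 list genes, the differences farthest above 0 were those of SP5, a target gene of the pathway, with a log2 fold change of 1.19 (adjusted p = 0.0949), and CTNNBIP1, an inhibitor of β-catenin, with 0.50 (adjusted p = 0.0899). SP5 was low in SLC, between 0.665 and 1.04 CPM with IL-1β, and spread widely with LOXL2, between 1.06 and 3.43 CPM. Those farthest below 0 were CSNK1G1 with -1.55 and VANGL1 with -1.39 (adjusted p = 0.0706 for both). Without IL-1β + LOXL2 replicate 1, 41 of 80 list genes passed, 9 higher and 32 lower, including 7 of 7 planar polarity genes, all lower. In that fit 61.7% of all genes passed, 4439 of 14334 higher and 4410 lower. The planar polarity genes have a median span of 122 kb against 20.5 kb for all tested genes, and the part of span in these calls was not tested. DESeq2's Wald test called 24 of the 83 list genes, beside 30% of all genes. The 24 may hold genes picked by these same counts, so they are no support for the list.

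Between layers under IL-1β, 48 of 83 list genes passed, 26 higher and 22 lower in MLC, beside 46.9% of all genes, 24.2% higher and 22.7% lower. The count holds 6 genes, CELSR2, FRZB, FZD9, NKD1, NOTUM and RSPO4, that entered the fit through MLC alone, where 3 libraries reached the level of the low-count filter (0.588 CPM) and at most 1 SLC library did, a limit set after the values were seen. Such genes could be called only higher in MLC, so they are given by their values. TLE2, which was not called, entered through SLC alone. Of the other 76 list genes 42 passed, 20 higher and 22 lower. Among feedback and target genes, NKD1 had 20 counts over the 3 SLC libraries and 79 over the 3 MLC libraries, and NOTUM, an enzyme that removes the lipid of Wnt ligands, had 16 and 46. Of the other 8 genes of this role, 4 were higher in MLC and none lower, beside the 24.2% and 22.7% of all genes. They were AXIN2, LEF1, a TCF/LEF factor (log2 fold change 2.31, adjusted p = 3.77e-06), CCND1, cyclin D1 (1.00, adjusted p = 8.02e-08), and APCDD1 (0.46, adjusted p = 0.0215), CCND1 and APCDD1 being named after their values were seen. LEF1 was low in SLC, between 0.623 and 0.665 CPM, just above the filter's level. With LOXL2, 4 of 10 passed, all higher in MLC, beside 9.29% of all genes higher and 6.83% lower. The 4 include NKD1, with 34 counts over the 3 SLC libraries and 71 over the 3 MLC libraries. It reached the filter's level there (0.494 CPM) in 2 SLC and 3 MLC libraries, so SLC alone would not have brought it into the fit.

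Among secreted antagonists under IL-1β, leaving out FRZB and NOTUM, 3 of 5 were lower in MLC (SFRP1, SFRP5 and DKK3) and 1 was higher. Of all genes 22.7% were lower and 24.2% higher, and the call of DKK3 was lost in several alternative runs, as given above. The higher one was SFRP4, named after its value was seen (log2 fold change 1.46, adjusted p = 2.86e-07). FRZB, a secreted Frizzled-related protein known from cartilage, stood at 0.301 ± 0.0956 CPM (SD, n = 3) in SLC and 5.12 ± 1.02 CPM (SD, n = 3) in MLC, from 19 and 230 counts over the 3 libraries of each layer. With LOXL2 it had 28 and 309 counts, and at most 1 SLC library reached the filter's level there too. SFRP5 stood at 31.2 ± 3.99 CPM (SD, n = 3) in SLC and 4.87 ± 0.575 CPM (SD, n = 3) in MLC (log2 fold change -2.67, adjusted p = 7.93e-10). SFRP5 was also lower in MLC with LOXL2 (log2 fold change -2.02, adjusted p = 0.00991).

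Among ligands, the R-spondins, which amplify Wnt signals, differed in opposite directions. RSPO4 had no counts in any of the 6 SLC libraries and 9 to 14 counts in each MLC IL-1β library, which is at least 14.7-fold higher in MLC against 3 counts over the SLC group. With LOXL2 it had 10 to 19 counts and was at least 20.5-fold higher. RSPO1 was lower in MLC, with log2 fold changes of -1.65 under IL-1β and -1.11 with LOXL2 (adjusted p = 3.53e-06 and 0.00261). WNT7B had 21 counts over the 3 SLC libraries with LOXL2 and 54 over the 3 MLC libraries, and it too entered that comparison through MLC alone. Among receptors, FZD5 was higher in MLC under IL-1β (log2 fold change 2.42, adjusted p = 8.72e-07), and ROR1, a receptor of WNT5A, was lower (-0.76, adjusted p = 6.66e-05).

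With LOXL2, 19 of 84 list genes passed between layers, 14 higher and 5 lower in MLC, beside 16.1% of all genes, 9.29% higher and 6.83% lower. FRZB, RSPO4 and WNT7B passed the filter through MLC alone, and TLE2 through SLC alone. Leaving these out, 16 of 80 were called, 11 higher and 5 lower. Among the 11 was NKD1, which reached the filter's level in 3 MLC libraries but only 2 SLC libraries. Without SLC replicate 1, 35 of 86 list genes were called, beside 32.9% of all genes. With the replicate block all of the 19 calls remained. LEF1 was higher in MLC (log2 fold change 2.43, adjusted p = 0.00133). TCF7L2, another TCF/LEF factor, and RYK, a receptor of Wnt ligands, were lower, with log2 fold changes of -0.60 (adjusted p = 0.0224) and -0.44 (adjusted p = 0.0233). None of 87 list genes passed the interaction. The only one with an unadjusted p under 0.05 was LGR6, an R-spondin receptor, with -1.46 (adjusted p = 0.958). Without SLC IL-1β + LOXL2 replicate 1, 19 of 89 had one, 15 higher and 4 lower, and none passed. Over all genes in that fit 3984 of 14701 had one, 1818 higher and 2166 lower. With all libraries, the median interaction over all genes went from -0.22 in the group with the shortest spans to 0.13 in that with the longest. The part of span in the list's interaction values was not tested.

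**Figure D5:**
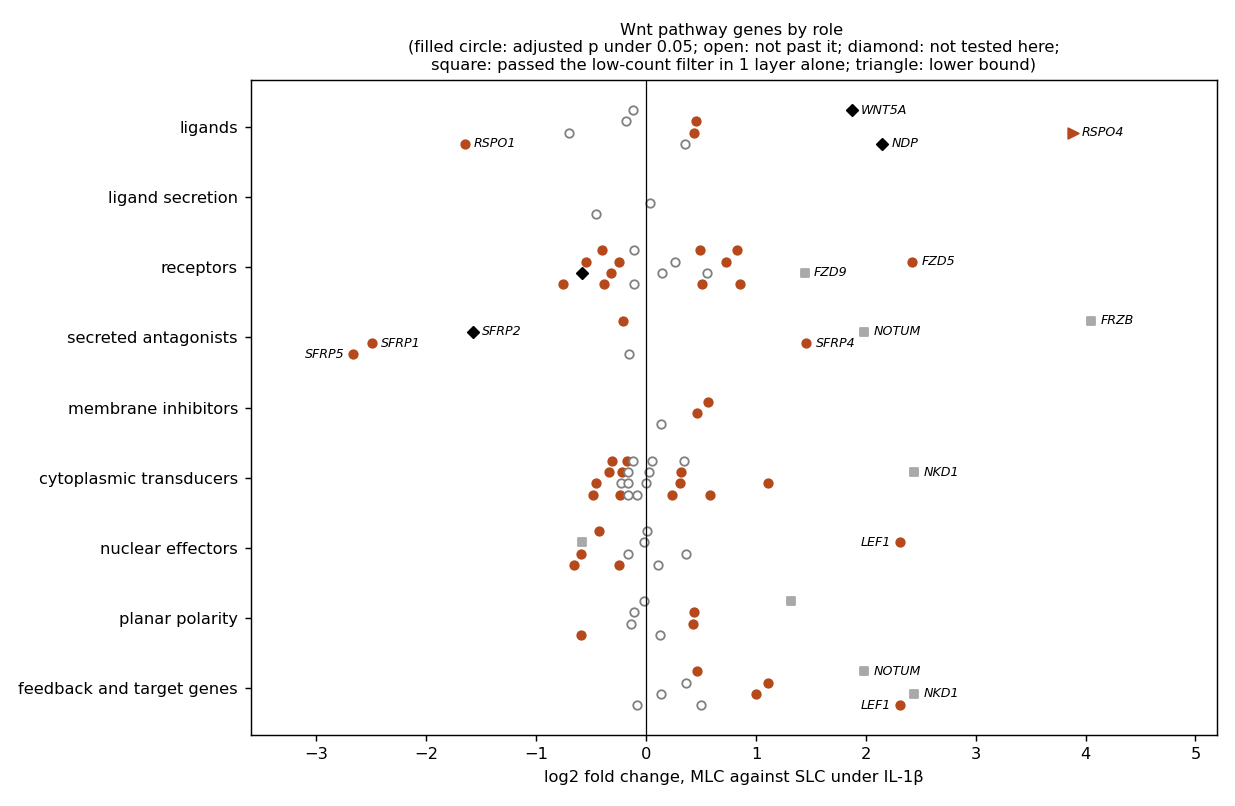
Log2 fold change in MLC against SLC under IL-1β (horizontal axis, edgeR) of the tested genes of the wider Wnt list, by role in rows. Filled circles have an adjusted p under 0.05, open circles do not, black diamonds are the picked genes, which were not tested, grey squares are genes that passed the low-count filter in 1 layer alone, and the triangle is the lower bound for RSPO4. Genes with 2 roles are drawn in both rows, and names are given past 1.4 in either direction. Among filled circles, the feedback and target genes lie to the right, and the secreted antagonists reach from SFRP5 at -2.67 to SFRP4 at 1.46.

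For the 4 picked genes, the genes with the most similar course over the 12 libraries were found by the root mean square difference of centred log2 CPM among 12262 genes. For LRP6, whose own root mean square deviation was 0.88, these were MAP3K2 (0.12), PHIP (0.18) and TANC2 (0.18). For WNT5A, at 1.07, they were TENM3 (0.12), TBX3 (0.14) and AHR (0.18). For NDP, at 0.92, they included SDC2 (0.22) and FABP5 (0.26). For SFRP2, at 0.61, the nearest were IMPA2 (0.29), TMOD4 (0.38) and PRTFDC1 (0.39), which were farther from it than the nearest genes of the other 3 were from theirs.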

How the data were processed

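For each layer the authors deposited 1 table of raw read counts by gene, from paired-end sequencing of mRNA mapped to goat ARS1.2. HISAT2 and featureCounts are named in the submitters' processing notes. Settings for strand and for multimapped reads are not given in the sources used here, so overlapping genes are uncertain. Each table has 28910 rows, of which 1783 share a name with another row and 26 carry names outside the RefSeq annotation. Gene positions and spans come from RefSeq (ARS1.2). No exon lengths or sequences were used.

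Tests were run in R 4.3.3 with edgeR 4.0.16: filterByExpr (min.count 10, min.total.count 15), TMM factors, then glmQLFit and a two-sided glmQLFTest, with Benjamini-Hochberg adjustment over all genes tested, on the 6 libraries of each comparison, and on all 12 for the interaction. Standard errors were derived from the fold change and the F statistic. Alternatives were DESeq2 1.42.0 size factors and Wald test, no filter, a replicate block, removal of the lowess trend (span 0.3) on gene span by offsets, a fit on all 12 libraries and each library left out. The procedure was tested on simulated counts.

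The 10 genes, the gene lists and the tests were chosen with earlier results of these data known. Named list genes are, per comparison, up to 5 with the largest increase and 5 with the largest decrease past the threshold, or up to 3 each at an unadjusted p under 0.05 where none passed. One gene among those nearest in course to the picked genes and 1 list of markers are not reported here. No batch is given in the labels. No replicate pair agreed within counting noise (chi-square over its degrees of freedom 2.30 or more). Deviations of same-numbered libraries from their group means correlated at 0.61, 0.21 and 0.17 between layers with LOXL2, which by the rule used (all 3 above 0.1) counts as pairing, although no label says that numbers mark a shared animal or day. Of the 3 MLC libraries with LOXL2, 2 correlated best with the SLC library of their own number. In the other comparisons at least 1 pair was below 0.1.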

Additional observations from a re-analysis of the deposited data

How the results depend on the processing

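Over all alternatives, 274 fold changes of the tested genes kept their direction and their side of the threshold, 22 lost the call, 2 gained it and 27 changed sign. Of the picked genes' fold changes 257 moved by less than the spread between replicates and 3 by more. In SLC between treatments, the count of genes called went from 0 to 4234 with DESeq2's Wald test and 5962 in the fit on all 12 libraries, and from 0 to 8849 over the fits leaving out a library. The Wnt list count went from 0 to 24, 31 and 0 to 44. All list counts in this paragraph include the picked genes, so they show how processing moves a count and are no support for the list. In MLC, both counts (2958 genes, 24 list genes) were 0 in the fit on all 12 libraries, and ranged from 0 to 6653 and 0 to 39 without a library. Between layers under IL-1β, the fit on all 12 libraries gave 3716 genes against 6545 and 30 list genes against 52. Between layers with LOXL2 it gave 4196 genes and 37 list genes, the replicate block gave 3884 and 33, and leaving out a library gave 1155 to 4673 and 12 to 37. In this comparison the numbers count as pairing by the rule used, which no label states. The interaction count ranged from 0 to 1. In the comparisons that did not meet that rule, the block gave 4053 genes and 29 list genes between treatments in MLC, 5816 and 49 between layers under IL-1β, and 0 in SLC and for the interaction. Of the tested genes' calls it changed only that of DKK3 between layers under IL-1β (adjusted p = 0.0731). The cause of these changes was not tested.

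Reversed values all concern fold changes that did not pass. With the span trend removed, LRP5 was 0.22 and SFRP1 0.17 in SLC, LRP5 0.26 and SFRP1 0.12 in MLC, and the WNT5B interaction -0.051. The SFRP1 interaction was 0.018 with DESeq2's size factors and with its Wald test. Without a library, SFRP1 ranged from -0.10 to 0.093 and DKK3 from -0.074 to 0.080 in SLC. In MLC LRP5 ranged from -0.059 to 0.040, SFRP1 from -0.12 to 0.13 and AXIN2 from -0.21 to 0.0016. The interactions ranged from -0.017 to 0.15 for WNT5B, -0.12 to 0.14 for SFRP1 and -0.036 to 0.32 for AXIN2. Levels per transcript length and promoter motifs were not run, since no exon lengths or sequences were at hand. Depth limits DKK1 and SFRP2 most.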
